A study of Mus musculus with 12 samples.

Results

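Rosiglitazone alone was compared with BMP2 alone, the last and the first treatment phase of a fat cell protocol, in MTΔECad cells. This is a mesenchymal mouse breast cancer cell line whose name marks the loss of E-cadherin. The phase with rosiglitazone alone was sampled at day 10 and the phase with BMP2 alone at day 3. The comparison rests on 4 of the 12 RNA sequencing libraries of the series, 2 at day 3 and 2 at day 10. By the protocol, all cells were seeded at 20000 cells per cm2 and first received 200 ng/ml of human recombinant BMP2. The day 3 cells had received BMP2 and nothing else for 3 days. The day 10 cells had gone through the same 3 days, then 4 days with BMP2 and 2 µM rosiglitazone together, then 3 days with 2 µM rosiglitazone and no added BMP2. The labels of the samples give the time only, so the treatment of each group is taken from the protocol text. RNA came from 2 independent experiments. No cells left untreated for the same time were among the samples. Rosiglitazone, the withdrawal of BMP2 and time in culture all differ between the groups, and their parts cannot be told apart. The day 7 libraries, taken at the end of the phase with both agents, and the 0 h libraries, taken before any agent, are used below to place the 2 states.

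BMP2 is a secreted growth factor of the TGF-beta superfamily. It binds BMP receptors, which phosphorylate SMAD1 and SMAD5, and these enter the nucleus with SMAD4 and switch on genes such as the Id genes and the inhibitory SMADs Smad6 and Smad7. Rosiglitazone is a drug that binds and activates PPARγ, a nuclear receptor and the central regulator of adipogenesis. PPARγ acts on DNA as a dimer with a retinoid X receptor and turns on genes for the uptake, storage and burning of fatty acids. In mesenchymal precursors BMP signalling is known to commit cells towards the fat lineage, and PPARγ to carry them through terminal differentiation.

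Library totals of the 12 libraries ran from 12820802 to 17570366 counts. The 2 libraries of a group lay close together, with a correlation of log2 CPM of 0.9920 at day 3 and 0.9937 at day 10. Of 17090 genes with a count, 12740 passed a filter on low counts and were tested with edgeR's quasi-likelihood test. A gene is called where the p-value adjusted by the Benjamini-Hochberg method over all genes tested is below 0.05. Levels are CPM, that is counts scaled by the library total and its TMM factor, given as the values of replicates 1 and 2, and a log2 fold change (log2FC) is day 10 against day 3 unless another comparison is named. The p-values measure the spread between the 2 independent experiments, pooled over all 6 time points of the series. In bulk RNA, fewer cells of a kind and less RNA per cell cannot be told apart.

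Most of the transcriptome differed between rosiglitazone alone and BMP2 alone. Of the 12740 genes tested, 9539 (74.9%) were called, 4879 (38.3%) higher at day 10 and 4660 (36.6%) lower. The shares of 38.3% and 36.6% are the background for each list count of day 10 against day 3 below. A list count near them says little about the list. A call with at least a 2-fold difference was made for 5004 genes (39.3%), 2830 higher (22.2%) and 2174 lower (17.1%). At least 10-fold differences were called for 826 genes in the upward and 295 in the downward direction. At the other end, the 95% interval of the fold change lay within 1.5-fold either way for 2905 genes (22.8%). The split depends on scaling: the stearoyl-CoA desaturase gene Scd1 alone made up 8.22% and 7.2% of the day 10 counts, and with library totals in place of TMM factors 3306 genes were called higher and 6931 lower. That choice moves the median log2FC of all genes by -0.46, and upper-quartile factors move it by -0.13, so every change below is relative to the TMM scale.

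**Figure D1:**
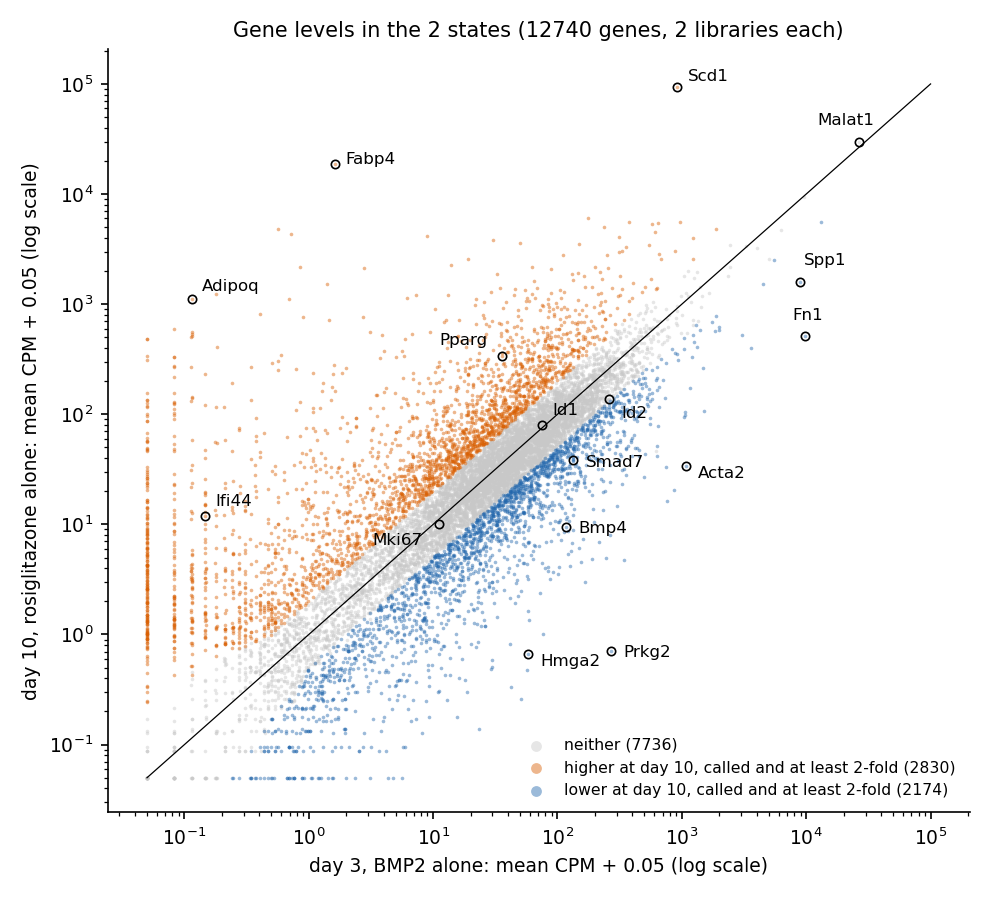
Mean CPM + 0.05 of the 12740 genes tested at day 3 (BMP2 alone, x axis) and day 10 (rosiglitazone alone, y axis), both on log scales, 2 libraries each; colours mark genes called with at least a 2-fold difference, grey marks all other genes and the line marks equal levels. Fat cell genes such as Fabp4 and Adipoq lie far above the line, Prkg2, Acta2 and Fn1 far below it, and Id1 and Mki67 near it.

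Fat cell genes were higher with rosiglitazone alone. Pparg, the receptor that rosiglitazone binds, had 46.1 and 25.3 CPM at day 3 and 336 and 342 CPM at day 10. Both day 10 libraries were far above both day 3 libraries, although the day 3 libraries also lay apart from each other. The log2FC was 3.25 (SE 0.23, adjusted p = 2.15e-06). Pparg had already risen under BMP2 alone, from a mean of 0.135 CPM at 0 h (log2FC 7.97, adjusted p = 3.51e-06 for day 3 against 0 h). Cebpa, which encodes the C/EBP factor that acts with PPARγ late in fat cell formation, had 43.5 and 35.2 CPM at day 3 and 495 and 444 CPM at day 10 (log2FC 3.58, SE 0.12, adjusted p = 6.16e-13). Cebpb, an early C/EBP factor, stood at 148 and 160 CPM at day 3 and 213 and 172 CPM at day 10 (log2FC 0.32, SE 0.13, adjusted p = 0.0354). So the late factor rose more than 10-fold, while the early one stayed near its day 3 level. The call for Cebpb was lost without either day 3 library (adjusted p = 0.173 and 0.0676) or without day 10 replicate 1 (0.303), and its log2FC was -0.14 with library totals.

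Fabp4, which carries fatty acids inside fat cells, had 1.84 and 1.32 CPM at day 3 and 19226 and 18411 CPM at day 10. The lipid droplet coat gene Plin1 went from 0.127 and 0.132 CPM to 1299 and 1153 CPM. Cidec, which fuses lipid droplets, went from 0.952 and 0.395 CPM to 4467 and 4144 CPM. For each of these genes the groups are apart by more than 3 orders of magnitude, and the log2FC was 13.53 (SE 0.20, adjusted p = 3.59e-18) for Fabp4, 13.12 (SE 0.20) for Plin1 and 12.62 (SE 0.22) for Cidec. Plin1 had only a few counts at day 3, so its fold is imprecise beyond its SE. The fatty acid transporter gene Cd36 had 0.571 and 0.460 CPM at day 3 and 4809 and 4847 CPM at day 10 (log2FC 13.17, SE 0.19). Adipoq, which encodes the hormone adiponectin, had 1 count in each day 3 library and 1128 and 1098 CPM at day 10. Its ratio of 17200 has a 95% counting interval of 4760 to 142000. Lpl, the lipase that releases fatty acids from lipoproteins, was already at 330 and 295 CPM with BMP2 alone and reached 4127 and 4006 CPM (log2FC 3.70, SE 0.10).

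The fixed list of white adipocyte markers held 25 genes, of which 23 passed the filter, and all 23 were called higher (background 38.3%), with a median log2FC of 9.66 against 0.01 over all genes. Of these, 9 had 0 to 3 counts at day 3 and passed the filter only through later times, so a rise was built in for them. With those at their bound or ratio the median was 8.87. Among PPAR target genes 30 of 31 passed the filter and 30 were called higher (median log2FC 6.05, or 6.21 with low members at their bound). They ran from a log2FC of 0.98 upwards, and 6 of them had 0 to 3 counts at day 3. Pck1, the phosphoenolpyruvate carboxykinase gene that supplies glycerol for triglyceride, and Aqp7, the glycerol channel of fat cells, had no count at day 3. Pck1 had 327 and 291 CPM at day 10, at least 3170-fold higher than a floor of 3 counts over both day 3 libraries, and Aqp7 had 120 and 112 CPM, at least 1190-fold higher. Angptl4, a secreted inhibitor of lipoprotein lipase, went from 0.635 and 0.395 to 315 and 293 CPM (log2FC 9.18, SE 0.22). Pdk4, the kinase that shuts pyruvate dehydrogenase, went from 45.6 and 55.2 to 625 and 592 CPM (log2FC 3.59, SE 0.16).

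The receptor's partners moved less. Of 17 tested nuclear receptor partners and coregulators of PPAR, 11 were called higher and 3 lower (median log2FC 0.87). The retinoid X receptor gene Rxra had 56.4 and 51.7 CPM at day 3 and 150 and 141 CPM at day 10 (log2FC 1.43, SE 0.08, adjusted p = 4.77e-11). Nr1h3, the oxysterol receptor LXRα, went from 4.76 and 3.55 to 173 and 175 CPM (log2FC 5.38, SE 0.14). Ppara, the PPAR of fatty acid burning tissues, had no count at day 3 and 26.6 and 26.0 CPM at day 10, at least 271-fold higher. Lpin1, a phosphatidate phosphatase that also acts as a coactivator, rose from 52.1 and 43.7 to 809 and 743 CPM (log2FC 4.02, SE 0.17). The 3 that fell were coactivator and mediator genes: Ncoa3 (log2FC -0.90, SE 0.10), Med1 (-0.47, SE 0.08) and Ncoa2 (-0.27, SE 0.11). The call for Ncoa2 was lost without day 3 replicate 2 and without either day 10 library (adjusted p = 0.2, 0.0645 and 0.143).

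Adipogenic transcription factors as a list were mixed, with 11 of 19 called higher and 7 lower (median log2FC 0.45, less than the shift that library totals bring). Zfp423, a determination factor of the fat lineage, went from 1.02 and 0.658 to 46.8 and 42.6 CPM (log2FC 5.72, SE 0.19). Egr2 (Krox20), a factor that acts early, had 19.9 and 12.3 CPM at day 3 and 1.25 and 1.61 CPM at day 10 (log2FC -3.48, SE 0.38). Klf4 went from 23.2 and 41.8 to 4.93 and 2.99 CPM (log2FC -3.05, SE 0.35), and Klf5 from 5.40 and 9.14 to 1.16 and 0.612 CPM (log2FC -3.05, SE 0.41). Cebpd, another early C/EBP factor, had 15 and 17.6 CPM at day 3 and 11.1 and 10.2 CPM at day 10 (log2FC -0.62, SE 0.14, adjusted p = 9.78e-04). Among 14 inhibitors of adipogenesis 3 were called higher and 8 lower (backgrounds 38.3% and 36.6%, median log2FC -0.49). The ligand gene Wnt10a went from 9.46 and 7.89 to 0.0896 and 0.306 CPM (log2FC -5.34, SE 0.43). Foxo1, a forkhead factor that insulin keeps out of the nucleus, rose (log2FC 0.50, SE 0.13).

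Genes of energy metabolism rose as blocks. All 24 fatty acid oxidation genes, all 19 citric acid cycle genes, all 41 nuclear genes of oxidative phosphorylation, all 17 genes of branched-chain amino acid breakdown, all 20 peroxisome genes and all 19 tested glycolysis genes were called higher, against a background of 38.3%. Their median log2FCs were 3.09, 2.16, 2.12, 2.52, 2.16 and 2.43, in that order. In the peroxisome list 1 gene and in the glycolysis list 1 gene had 0 to 3 counts at day 3. A fall could not have been called for these. No member of the oxidative phosphorylation list rose by less than a log2FC of 1.15. Acadm, the medium-chain acyl-CoA dehydrogenase, had 68.2 and 57.3 CPM at day 3 and 2124 and 2248 CPM at day 10 (log2FC 5.12, SE 0.10). Citrate synthase (Cs) went from 264 and 243 to 2214 and 2090 CPM (log2FC 3.09, SE 0.09). Cytochrome c (Cycs) went from 6.92 and 6.44 to 91.3 and 94.0 CPM (log2FC 3.79, SE 0.11). In each case both day 10 libraries were several times above both day 3 libraries, and the replicates of a group differed far less than the groups. The anaplerotic enzyme pyruvate carboxylase (Pcx) went from 20.8 and 17.4 to 2764 and 2373 CPM (log2FC 7.07, SE 0.18), and catalase (Cat), the peroxide-removing enzyme of peroxisomes, from 124 and 99.6 to 2900 and 2724 CPM (log2FC 4.65, SE 0.13). Lactate dehydrogenase A (Ldha) rose from 365 and 343 to 3350 and 3303 CPM (log2FC 3.23, SE 0.09). In the breakdown of branched-chain amino acids, Aldh6a1 rose by a log2FC of 4.05 (SE 0.10), whereas Bcat1, the cytosolic transaminase at the head of that pathway, fell from 54.3 and 58.8 to 0.537 and 0.306 CPM (log2FC -7.07, SE 0.20, adjusted p = 6.94e-15). Its relative Bcat2, a member of the list, rose (log2FC 2.40, adjusted p = 6.03e-11).

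Synthesis and storage of lipid rose as well. Of 23 tested fatty acid and triglyceride synthesis genes 22 were called higher and 0 lower (median log2FC 4.33), and of 18 lipid droplet and lipolysis genes 17 higher and 0 lower (median 4.63). Of these, 2 synthesis genes and 5 droplet and lipolysis genes had 0 to 3 counts at day 3, so a rise was built in for them, as for 6 of the PPAR targets above. Fasn, the fatty acid synthase, had 171 and 180 CPM at day 3 and 6674 and 5563 CPM at day 10 (log2FC 5.12, SE 0.10, adjusted p = 1.51e-16). Scd1 went from 1114 and 726 to 100310 and 85417 CPM (log2FC 6.66, SE 0.42). Gpd1, which makes glycerol phosphate, went from 9.84 and 8.02 to 4311 and 4053 CPM (log2FC 8.87, SE 0.16). G0s2, an inhibitor of the lipase ATGL, had no count at day 3 and 353 and 321 CPM at day 10, at least 3470-fold higher. Of 23 tested cholesterol synthesis genes 22 were called higher and 0 lower (median log2FC 2.41). This list had gone the other way under BMP2 alone, where 0 were higher and 18 lower at day 3 than at 0 h, beside backgrounds of 33.1% and 35.0% in that comparison. It was not the only one. In that comparison glycolysis had 14 lower and 4 higher, oxidative phosphorylation 27 and 3, and the citric acid cycle 11 and 1. Fatty acid oxidation had 1 lower and 12 higher, branched-chain amino acid breakdown 2 and 11, and the peroxisome list 2 and 13. Hmgcs1, which makes the substrate of HMG-CoA reductase, had a mean of 141 CPM at 0 h, 65.8 and 58.5 CPM at day 3 and 1215 and 1263 CPM at day 10 (log2FC 4.32, SE 0.22). Insig1, the sterol sensor of the endoplasmic reticulum, went from 49.0 and 28.2 to 1094 and 1004 CPM (log2FC 4.76, SE 0.38).

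**Figure D2:**
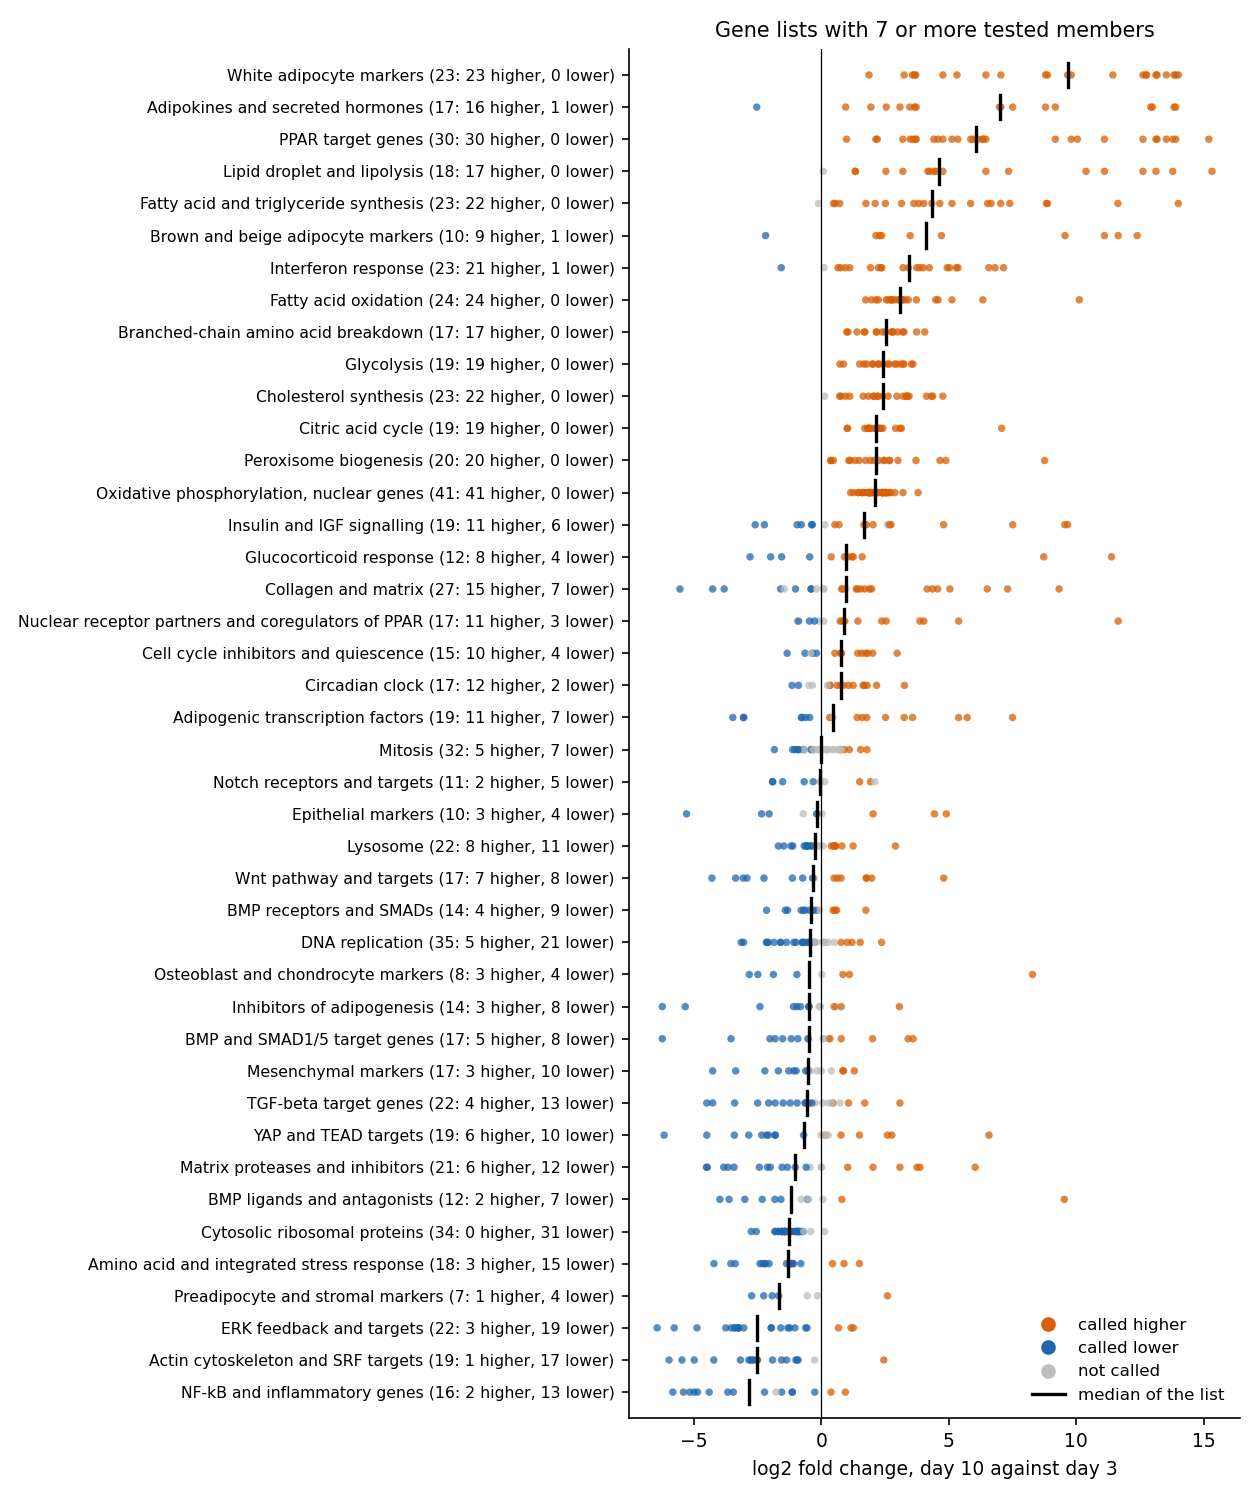
Log2 fold change at day 10 against day 3 (x axis) of each tested member of the fixed lists with 7 or more such members (rows, with the number tested and called), ordered by the list's median (black bar); orange, called higher, blue, called lower, grey, not called. Members with 0 to 3 counts in a group are drawn at fitted values, which depend on the prior count. White adipocyte markers stand at the top with a median of 9.66 and NF-kB genes at the bottom with -2.84.

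Secreted products of fat cells were among the largest rises. Of 17 tested adipokines and secreted hormones 16 were called higher and 1 lower (median log2FC 6.99, or 5.24 with low members at their bound). Of the 17, 5 had 0 to 3 counts at day 3, so a rise was built in for them. Cfd, which encodes adipsin, had 1 count in the 2 day 3 libraries and 615 and 567 CPM at day 10 (ratio 18200, 95% counting interval 3270 to 720000). Rarres2, the chemerin gene, also had 1 count at day 3 and 331 and 326 CPM at day 10 (ratio 10200, interval 1820 to 402000). Leptin (Lep) was at 0.762 and 0.263 CPM and then 5.46 and 7.66 CPM (log2FC 3.65, SE 0.39). Resistin (Retn) was not detected at day 3 and had 2.69 and 4.52 CPM at day 10, at least 37.9-fold higher. Lcn2, the lipocalin that binds siderophores, was the 1 member that fell, from 18.9 and 24.1 to 4.75 and 2.76 CPM (log2FC -2.54, SE 0.26). Igf1 had 1.97 and 1.12 CPM at day 3 and 273 and 293 CPM at day 10 (log2FC 7.5, SE 0.30), while its receptor gene Igf1r fell from 229 and 276 to 56.0 and 51.2 CPM (log2FC -2.24, SE 0.18). Of 19 tested insulin and IGF signalling genes 11 were called higher and 6 lower (backgrounds 38.3% and 36.6%), and 4 of the 19 had 0 to 3 counts in a group. Slc2a4, the insulin-responsive glucose transporter GLUT4, had no count at day 3 and 7.70 and 5.67 CPM at day 10, at least 68.1-fold higher. Akt1, a kinase downstream of both receptors, fell from 253 and 259 to 140 and 125 CPM (log2FC -0.95, SE 0.08), while its relative Akt2 rose (log2FC 1.76, adjusted p = 6e-13).

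Of 19 listed markers of brown and beige fat cells 10 passed the filter, 9 were called higher and 1 lower (background 38.3% higher, median log2FC 4.10). Of the 10, 4 had 0 to 3 counts at day 3, so a rise was built in for them. Cidea, a lipid droplet protein abundant in brown fat, had 3 counts at day 3 and 235 and 227 CPM at day 10 (ratio 2380, interval 815 to 11600). Cox8b, a subunit of cytochrome oxidase, had 1 count at day 3 and 223 and 211 CPM at day 10 (ratio 6710, interval 1200 to 265000). Ppargc1a, the coactivator PGC-1α, rose from 7.05 and 5.66 to 32.7 and 32.8 CPM (log2FC 2.36, SE 0.15). The uncoupling protein gene Ucp1, the defining product of brown fat, had 1 count in the 4 libraries, at day 10, and was not tested. Dio2, the deiodinase that activates thyroid hormone, fell from 2.35 and 1.84 to 0.358 and 0.536 CPM (log2FC -2.19, SE 0.46).

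The BMP pathway did not move as one block when rosiglitazone alone was set against BMP2 alone. Of 17 tested BMP and SMAD1/5 target genes, of 22 listed, 5 were called higher and 8 lower (backgrounds 38.3% and 36.6%), with a median log2FC of -0.50. Id1, the most used readout of BMP signalling, had 78.7 and 71.4 CPM with BMP2 alone and 83.4 and 75.8 CPM with rosiglitazone alone. The groups overlapped, and the log2FC of 0.08 (SE 0.08) had a 95% interval from -0.09 to 0.26 (adjusted p = 0.368). Both states lay above the mean of 36.3 CPM at 0 h (log2FC 1.05 at day 3 and 1.13 at day 10 against 0 h, adjusted p = 1.21e-08 and 1.95e-09). Smad6, which blocks BMP receptor signalling, had 48.8 and 46.0 CPM at day 3 and 63.1 and 56.4 CPM at day 10, against a mean of 6.54 CPM at 0 h (log2FC 0.33, SE 0.10, adjusted p = 0.0069 for day 10 against day 3, but 0.0816 without day 10 replicate 1). Id3 had 84.2 and 60.6 CPM at day 3 and 85.7 and 91.1 CPM at day 10, a difference that missed the threshold (adjusted p = 0.0607) and passed it without day 3 replicate 1 (log2FC 0.54, adjusted p = 0.00017). On the TMM scale no fall against day 3 was thus called for these 3 classical targets, but with library totals the log2FC was -0.38 for Id1 (adjusted p = 0.000457), -0.13 for Smad6 and -0.17 for Id3. Against day 7, the last time with BMP2 in the medium, all 3 were lower at day 10 on the TMM scale. Their log2FCs in that step were -0.41 for Id1, -0.39 for Smad6 and -0.96 for Id3.

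Other targets fell. Id2 had 282 and 236 CPM at day 3 and 132 and 141 CPM at day 10 (log2FC -0.92, SE 0.08, adjusted p = 2.92e-08), still above its mean of 72.6 CPM at 0 h. Smad7, the inhibitory SMAD shared with TGF-beta signalling, went from 129 and 139 to 37.6 and 38.5 CPM (log2FC -1.82, SE 0.08, adjusted p = 8.65e-13), below its mean of 63.3 CPM at 0 h. Atoh8, a helix-loop-helix factor induced by BMPs, went from 68.7 and 69.8 to 17.9 and 16.3 CPM (log2FC -2.02, SE 0.11, adjusted p = 2.65e-11). The groups do not overlap in any of the 3, and both day 10 libraries were the lower ones. The homeobox gene Dlx1 fell from 25.5 and 19.9 to 1.61 and 2.22 CPM (log2FC -3.55, SE 0.19), and the transcriptional repressor gene Hey1, which Notch also induces, from 7.24 and 6.25 to 1.88 and 2.76 CPM (log2FC -1.52, SE 0.24). Gata2 had 0.571 and 0.658 CPM at day 3 and no count at day 10, at least 4.96-fold lower. Gata3 went the other way, from 46.9 and 47.0 to 81.7 and 79.2 CPM (log2FC 0.78, SE 0.09, adjusted p = 3.05e-07). Nog, the BMP antagonist noggin, rose from 0.508 and 0.460 to 6.27 and 5.67 CPM (log2FC 3.6, SE 0.32).

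Of 12 tested ligands and antagonists 7 were called lower with rosiglitazone alone and 2 higher, beside backgrounds of 36.6% lower and 38.3% higher (median log2FC -1.19). Bmp4, a BMP ligand that these cells make themselves, had 113 and 120 CPM at day 3 and 9.40 and 9.49 CPM at day 10 (log2FC -3.62, SE 0.13, adjusted p = 1.04e-13). The day 3 libraries were more than 10 times higher, and BMP2 alone was the peak of the course, since the mean at 0 h was 43.1 CPM. Fst, the activin and BMP antagonist follistatin, fell from 7.81 and 8.88 to 1.07 and 0.995 CPM (log2FC -3.0, SE 0.25). Gdf5, another BMP family ligand, had no count at day 3 and 6.09 and 6.05 CPM at day 10, at least 62.6-fold higher, and the extracellular BMP modulator Twsg1 rose from 131 and 122 to 218 and 223 CPM (log2FC 0.80, SE 0.08). Of 14 tested receptors and SMADs 4 were called higher and 9 lower, beside the same backgrounds (median log2FC -0.39). Without day 10 replicate 1 only 5 were called lower, and with library totals 1 was called higher. The type I receptor gene Bmpr1a rose from 523 and 456 to 728 and 752 CPM (log2FC 0.59, SE 0.08), while another type I receptor gene, Acvr1, fell from 29.1 and 31.0 to 10.5 and 13.3 CPM (log2FC -1.33, SE 0.16). Smad1, the signal-carrying SMAD, fell from 56.9 and 53.1 to 21.9 and 19.4 CPM (log2FC -1.41, SE 0.10). Rgma, a BMP co-receptor, rose from 11.2 and 17.7 to 50.6 and 46.0 CPM (log2FC 1.74, SE 0.20).

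**Figure D3:**
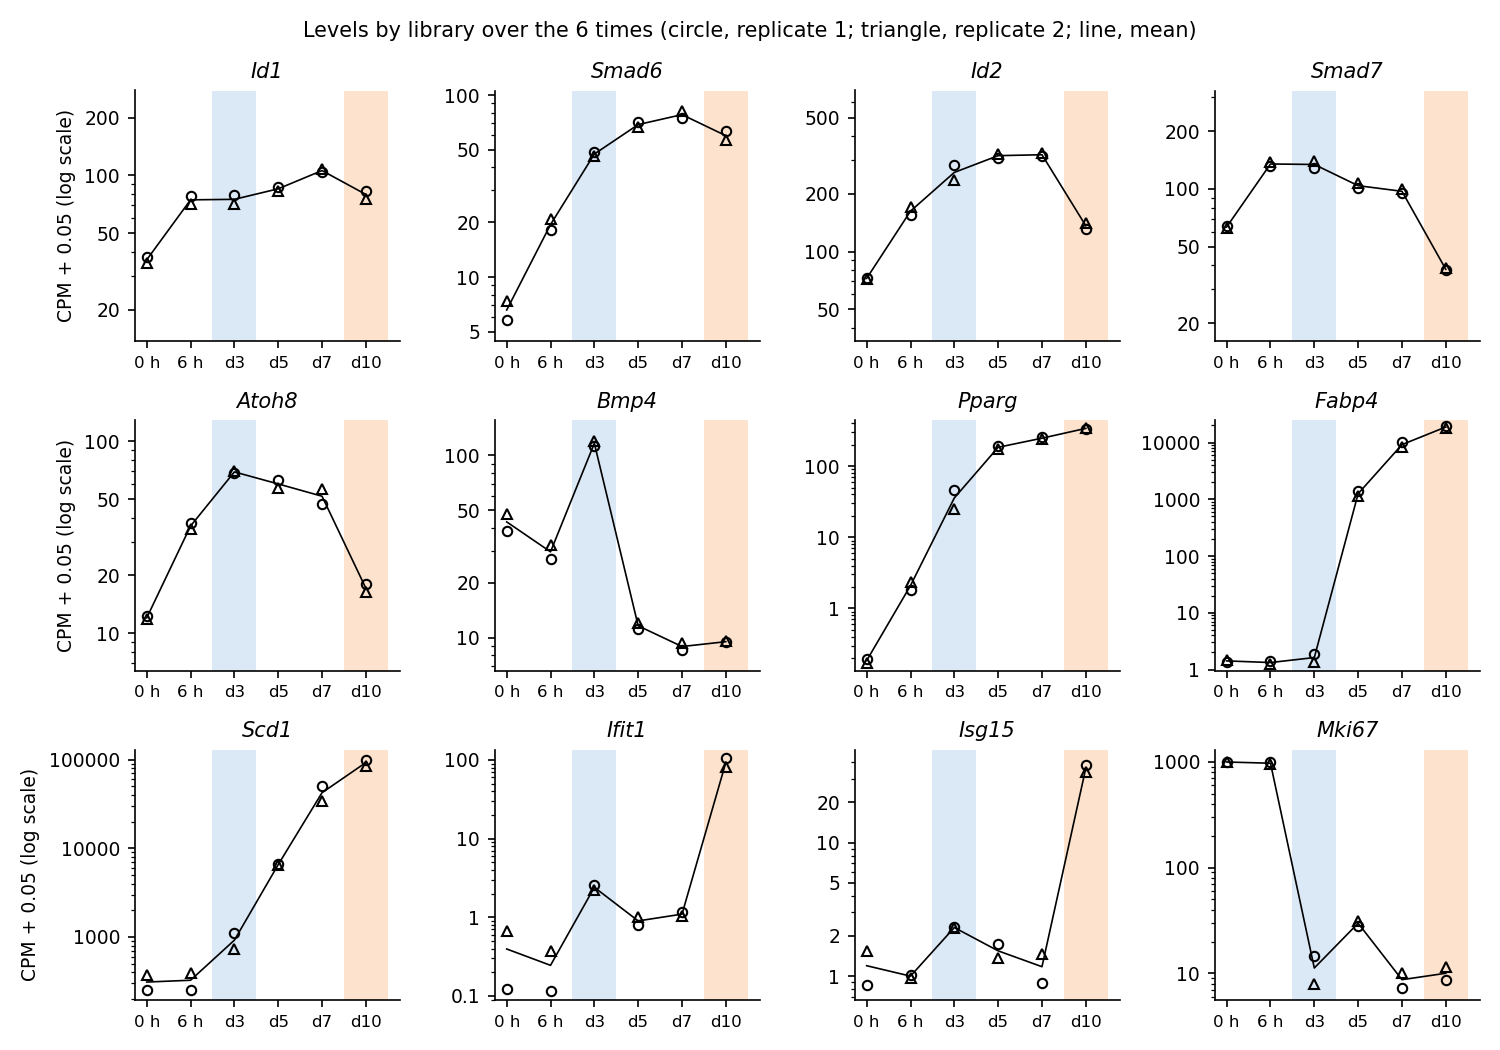
CPM + 0.05 (y axis, log scale, own range in each panel) of 12 genes in every library of the series over the 6 times (x axis; d3 is day 3 and so on); circles are replicate 1, triangles replicate 2, lines join the means, the blue band marks day 3 (BMP2 alone) and the orange band day 10 (rosiglitazone alone). Id1 and Smad6 are near equal in the 2 bands, Id2, Smad7 and Atoh8 drop between day 7 and day 10, Bmp4 drops between day 3 and day 5, and Ifit1 and Isg15 climb at day 10.

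The day 7 libraries divide the difference into a step in which rosiglitazone was added to BMP2 (day 7 against day 3) and a step in which BMP2 was left out (day 10 against day 7). They enter both steps, so a high or low day 7 value moves the steps in opposite directions, and the steps are given side by side without a test between them. The first step held 9157 called genes (71.9%), the second 3615 (28.4%) with 760 of at least 2-fold (5.97%). The second count rests on single libraries, at 2143 without day 7 replicate 2, 2351 without day 10 replicate 1 and 2370 without day 10 replicate 2. Among the 17 BMP targets 10 were called higher and 6 lower in the first step (backgrounds 35.8% and 36.1%), and 2 higher and 11 lower in the second (15.1% and 13.2%), with medians of 0.50 and -0.50. Id2 had a log2FC of 0.31 and then -1.23, Hey1 of 1.16 and then -2.68, Id4 of 1.76 and then -1.69, and Smad7 of -0.46 and then -1.35. Id4, named here after its values were seen, had 2.29 and 2.43 CPM at day 3, 8.31 and 7.78 CPM at day 7 and 2.51 and 2.45 CPM at day 10. Id1 had a log2FC of 0.50 and then -0.41, both called (adjusted p = 3.27e-05 and 0.00111). The near equality of Id1 in the 2 states therefore spans a higher level at day 7, when both agents were present.

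Bmp4 behaved otherwise, with a log2FC of -3.71 in the first step and 0.09 in the second (adjusted p = 0.711), so its fall came while BMP2 was still being added. The fat cell programme also changed mainly in the first step. Of the 30 tested PPAR targets 29 were called higher in it and 0 lower, and in the second 15 higher and 0 lower (medians 5.95 and 0.29). For white adipocyte markers the counts were 23 and 14 higher, with 0 lower in each (medians 8.88 and 0.55). Nuclear oxidative phosphorylation genes were called higher in 41 of 41 cases in the first step, while the second had 1 higher and 6 lower (median -0.11). A few genes rose mainly after BMP2 was left out. Bhlhe41, a clock repressor, had log2FCs of -0.07 and 1.86, and the related Bhlhe40 of -0.01 and 1.07. Klf15, a Krüppel-like factor of fat and muscle, fell and then rose (-0.76 and 2.16), so that its 8.32 and 11.2 CPM at day 3 became 27.8 and 24.0 CPM at day 10. Fosl1, a partner of JUN in AP-1, did the same more steeply (-2.98 and 4.23).

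**Figure D4:**
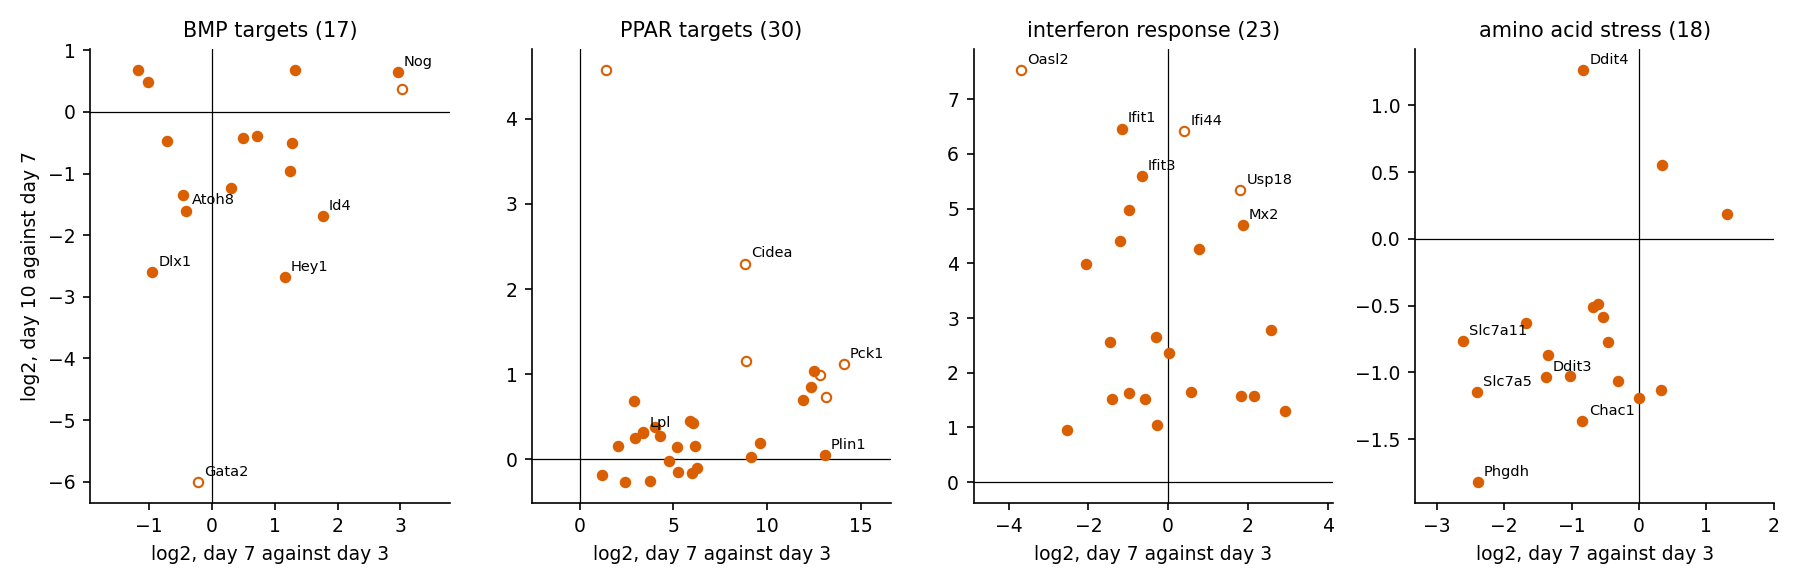
Log2 fold change of each tested member of 4 lists in the step from day 3 to day 7 (x axis) and from day 7 to day 10 (y axis), with day 7 libraries shared by both axes; open circles are members with 0 to 3 counts in at least 1 of the 3 groups, whose fitted values depend on the prior count. PPAR targets spread along the x axis, interferon response genes along the positive y axis, and most BMP targets and amino acid stress genes lie below the horizontal line.

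Interferon response genes were higher with rosiglitazone alone, and their rise came mostly in the second step. Interferons are antiviral cytokines whose signal reaches a DNA element in the promoters of antiviral genes. Of 23 tested members of the list, of 27 listed, 21 were called higher at day 10 than at day 3 and 1 lower (median log2FC 3.42). Of the 23, 2 had 0 to 3 counts at day 3 and 1 had 0 to 3 counts at day 7, so a rise from those times was built in for them. In the first step 7 were called higher and 9 lower (median -0.32), and in the second 23 were called higher and 0 lower (median 2.66), beside a background of 15.1%. Ifit1, an antiviral protein that binds viral RNA ends, had 2.54 and 2.17 CPM at day 3, 1.11 and 0.987 CPM at day 7 and 104 and 81.2 CPM at day 10 (log2FC 5.29 for day 10 against day 3, SE 0.22, adjusted p = 6.31e-12). Isg15, a ubiquitin-like protein, had 2.29 and 2.24 CPM, then 0.831 and 1.42 CPM, then 38.3 and 33.9 CPM (log2FC 3.99, SE 0.20). Gbp3, a guanylate-binding protein, had 3.11 and 1.58 CPM, then 3.95 and 4.07 CPM, then 80.5 and 73.6 CPM (log2FC 5.03, SE 0.18). Both day 10 libraries stood more than 10-fold above all day 3 and day 7 libraries for these 3 genes. Ifit1, Isg15, Gbp3 and the 3 genes Ifit3, Irf7 and Ddx58 are named here after their values were seen.

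Regulators of the response rose too. Irf7, the factor that amplifies interferon production, went from 2.41 and 1.58 CPM at day 3 to 91.4 and 73.7 CPM at day 10 (log2FC 5.36, SE 0.22). Ddx58, which encodes the RNA sensor RIG-I, had 57.3 and 46.0 CPM, then 50.04 and 54.0 CPM, then 280.2 and 252 CPM. Usp18, the protease that removes ISG15, had 3 counts at day 3 and 16.6 and 13.2 CPM at day 10 (ratio 152, interval 51.8 to 743). Mx2, an antiviral GTPase, rose from 0.127 and 0.329 to 23.7 and 20.7 CPM (log2FC 6.57, SE 0.41), and Ifi44 had 3 counts at day 3 and 12.5 and 11.1 CPM at day 10 (ratio 121, interval 41.1 to 592). Ifit2 was the 1 member that fell, from 60.8 and 64.8 CPM to 23.6 and 18.8 CPM (log2FC -1.57, SE 0.12), although it too rose from a mean of 10.8 CPM at day 7 (log2FC 0.96, adjusted p = 8.74e-05). The Ifit and Gbp genes have near-identical relatives, and how the counting treated reads shared among them is not given in the sources used here. No infection, interferon addition or interferon measurement is in the labels, and the source of the rise was not tested.

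The promoters of 4 of these genes are shown because the members rose together and the letters of the interferon-stimulated response element, GAAANNGAAA on either strand, occur in them. Each line gives the 250 bases before the start site in RefSeq for GRCm38.p6, 5′ to 3′ on the strand of the gene, with the matches in capitals. The Ifit1 promoter lies at chr19:34640639-34640888 (+), that of Ifit3 at chr19:34583279-34583528 (+), that of Isg15 at chr4:156200819-156201068 (-) and that of Gbp3 at chr3:142559794-142560043 (+).
Ifit1: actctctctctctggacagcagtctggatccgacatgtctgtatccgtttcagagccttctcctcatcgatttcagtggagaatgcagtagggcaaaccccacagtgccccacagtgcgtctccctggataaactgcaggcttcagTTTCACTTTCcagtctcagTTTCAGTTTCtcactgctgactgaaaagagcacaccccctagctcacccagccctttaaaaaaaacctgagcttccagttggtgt
Ifit3: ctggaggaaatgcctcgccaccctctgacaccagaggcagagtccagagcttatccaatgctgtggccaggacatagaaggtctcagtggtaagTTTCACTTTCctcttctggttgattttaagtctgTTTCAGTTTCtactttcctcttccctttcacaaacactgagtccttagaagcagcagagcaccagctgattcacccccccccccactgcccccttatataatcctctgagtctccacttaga
Isg15: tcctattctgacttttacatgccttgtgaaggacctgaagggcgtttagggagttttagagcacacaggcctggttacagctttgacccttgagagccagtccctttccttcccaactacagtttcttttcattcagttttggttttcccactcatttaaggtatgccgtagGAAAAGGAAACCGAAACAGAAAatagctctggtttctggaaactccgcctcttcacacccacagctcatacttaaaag
Gbp3: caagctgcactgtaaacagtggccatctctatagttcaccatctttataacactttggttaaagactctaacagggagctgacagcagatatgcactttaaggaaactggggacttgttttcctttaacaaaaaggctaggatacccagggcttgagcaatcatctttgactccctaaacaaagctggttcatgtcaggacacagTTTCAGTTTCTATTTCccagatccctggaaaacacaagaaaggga
The matches begin 104 and 85 bases before the start site in Ifit1, 156 and 122 in Ifit3, 78, 72 and 66 in Isg15 and 45 and 39 in Gbp3, overlapping in the last pair of genes. Of the 23 tested interferon response genes, 19 matched a promoter in the table and 8 of these held the letters, namely B2m, Bst2, Gbp2, Gbp3, Ifit1, Ifit3, Isg15 and Stat2. Of all 32851 promoters of that length, 978 (2.98%) held them. The direct repeat AGGNCA, any base, AGGNCA, which PPAR dimers bind, read on either strand, was in 0 of 19 matched PPAR target promoters and in 111 of all promoters (0.338%). The SMAD element GGCGCC was in 4 of 11 matched BMP target promoters (Gata2, Gata3, Id2 and Id4) and in 3149 of all (9.59%). A listed gene was counted if any of its promoters held the letters, whereas the shares over all are of single promoters. The counts and the shares are thus in unlike units, and a gene with several start sites has more chances to be counted. These are matches of letters in a window and describe no binding.

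Cell division genes were low in both states, far below the growing cells at 0 h. The 32 mitosis genes summed to 9015 and 8646 CPM at 0 h, 182.4 and 130.3 CPM at day 3 and 121.7 and 134.9 CPM at day 10. The 35 DNA replication genes summed to 4335 and 4307 CPM at 0 h, 490.4 and 521.4 CPM at day 3 and 305.9 and 324.5 CPM at day 10. Each of the 32 mitosis and 35 replication genes was called lower than at 0 h, both at day 3 (background 35.0%) and at day 10 (39.9%). Between the 2 states the mitosis list had 5 called higher and 7 lower of 32 (median log2FC -0.03), and the replication list 5 higher and 21 lower of 35 (median -0.46). The mitosis counts moved with the setting, to 2 higher and 12 lower with library totals, 9 higher without day 3 replicate 1 and 4 lower without day 10 replicate 1. Mki67, the marker of proliferating cells, had 14.4 and 7.96 CPM at day 3 and 8.60 and 11.3 CPM at day 10. The groups overlapped and no difference was called (log2FC -0.16, 95% interval -0.79 to 0.47, adjusted p = 0.613), against a mean of 997 CPM at 0 h. Without day 3 replicate 2 it was called lower (log2FC -0.52, adjusted p = 0.0164).

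**Figure D5:**
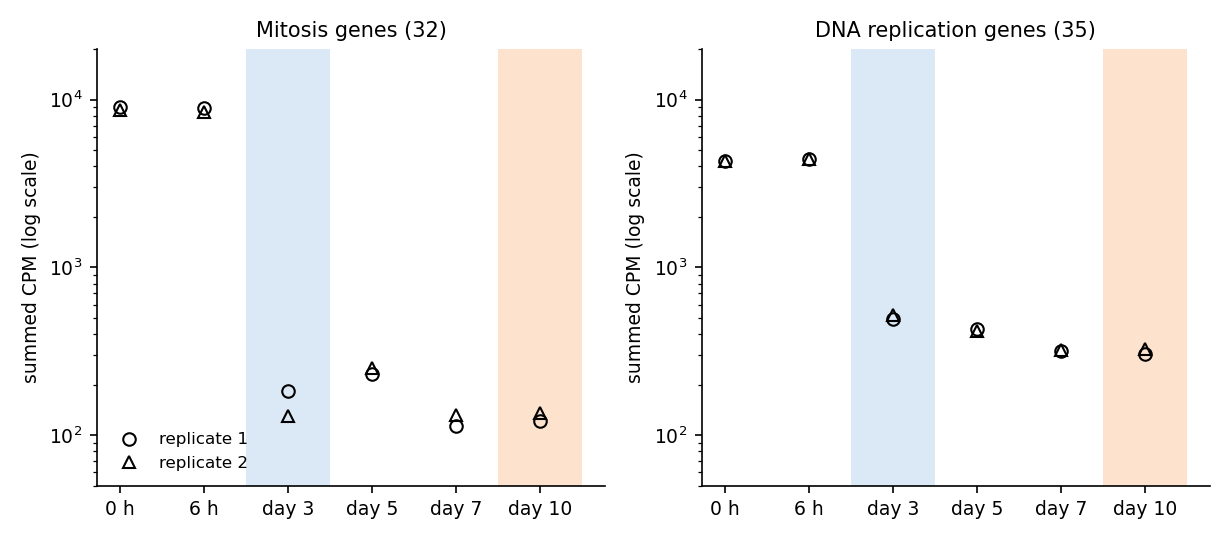
Summed CPM (y axis, log scale) of the mitosis and DNA replication lists in each library over the 6 times (x axis); circles are replicate 1, triangles replicate 2, the blue band marks day 3 (BMP2 alone) and the orange band day 10 (rosiglitazone alone). The mitosis sum falls from 9015 and 8646 CPM at 0 h to under 200 CPM in both bands.

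The largest called falls in the replication list were those of Mcm2, Cdt1 and Mcm7. Mcm2, a subunit of the replicative helicase, had 54.3 and 55.6 CPM at day 3 and 7.08 and 5.44 CPM at day 10 (log2FC -3.14, SE 0.14). Cdt1, which loads that helicase, fell from 9.46 and 14.7 to 1.61 and 1.3 CPM (log2FC -3.05, SE 0.26), and Mcm7 from 68.5 and 92.7 to 19.1 and 17.1 CPM (log2FC -2.16, SE 0.14). Ccne2, a cyclin of the entry into S phase, rose from 5.90 and 6.31 to 28.0 and 34.5 CPM (log2FC 2.36, SE 0.13), against a mean of 125 CPM at 0 h, and E2f1 rose from 5.14 and 4.47 to 13.1 and 14.5 CPM (log2FC 1.52, SE 0.15). Ccnd1, the cyclin that links growth factors to the cell cycle, was still at 442 and 465 CPM with BMP2 alone and fell to 45 and 49.8 CPM (log2FC -3.26, SE 0.13, adjusted p = 1.49e-11). Among 15 tested inhibitors and quiescence genes 10 were called higher and 4 lower (median log2FC 0.77), or 2 lower without day 10 replicate 1. The inhibitors differed between themselves: Cdkn1a (p21) rose from 31.4 and 40.4 to 63.6 and 59.5 CPM (log2FC 0.78, SE 0.13), Cdkn2c (p18) from 53.8 and 43.6 to 192 and 202 CPM (log2FC 2.01, SE 0.09), and Cdkn1b (p27) fell from 173 and 154 to 105 and 105 CPM (log2FC -0.64, SE 0.07).

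Among the genes that fell with rosiglitazone alone were most listed genes of the contractile cytoskeleton, ERK signalling and inflammation. Of 19 tested actin cytoskeleton and SRF target genes 17 were called lower and 1 higher (background 36.6% lower, median log2FC -2.54), of 22 ERK feedback and target genes 19 lower and 3 higher (median -2.51), and of 16 NF-kB and inflammatory genes 13 lower and 2 higher (median -2.84), or 1 higher without day 3 replicate 2 or day 10 replicate 2. Of the 16 NF-kB and inflammatory genes 3 had 0 to 3 counts in a group, so a call was possible in 1 direction only for them. With these at their bound the median was still -2.84. Acta2, the smooth muscle actin of contractile fibroblasts, had 1281 and 865 CPM at day 3 and 38.2 and 29.6 CPM at day 10 (log2FC -4.99, SE 0.34, adjusted p = 4.33e-06). Myl9, a myosin light chain, went from 33.7 and 24.3 to 0.269 and 0.612 CPM (log2FC -5.97, SE 0.38), and the LIM protein gene Fhl2 from 62.7 and 54.9 to 1.25 and 1.38 CPM (log2FC -5.47, SE 0.22). The day 3 libraries are the higher ones for all 3, by more than 20-fold. Ankrd1, a target of YAP, fell from 364 and 324 to 3.94 and 5.51 CPM (log2FC -6.17, SE 0.18), and Ccn2, another target of YAP and of TGF-beta, from 151 and 108 to 5.55 and 5.89 CPM (log2FC -4.50, SE 0.35). The YAP and TEAD list as a whole had 10 called lower and 6 higher of 19 (median -0.70), with Ccdc80 (log2FC 6.57, SE 0.16) and Dlc1 (2.76, SE 0.09) among those that rose.

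In the ERK list, Etv4, an ETS factor induced by fibroblast growth factors, fell from 29.4 and 30.2 to 0.537 and 0.536 CPM (log2FC -5.77, SE 0.19), and the feedback inhibitor gene Spry1 from 89.0 and 114 to 4.21 and 2.76 CPM (log2FC -4.88, SE 0.25). Its relatives went the other way, with a log2FC of 0.67 (SE 0.15) for Spry2 and 1.16 (SE 0.28) for Spry4. Csf1, the growth factor of macrophages, had 751 and 970 CPM at day 3 and 22.0 and 18.5 CPM at day 10 (log2FC -5.41, SE 0.18). The neutrophil chemokine gene Cxcl5 went from 189 and 144 to 2.87 and 2.99 CPM (log2FC -5.83, SE 0.23) and the cytokine gene Lif from 13.3 and 13.9 to 0.448 and 0.306 CPM (log2FC -5.16, SE 0.32). Nfkbia, the inhibitor of NF-kB that NF-kB induces, rose from 36.2 and 30.4 to 64.9 and 63.0 CPM (log2FC 0.94, SE 0.10). In each of the 3 lists the larger part of the fall came in the first step, with medians of -2.10, -2.55 and -3.29 at day 7 against day 3 and of -0.31, -0.01 and -0.14 at day 10 against day 7.

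The extracellular matrix was exchanged in part. Of 27 tested collagen and matrix genes 15 were called higher and 7 lower (backgrounds 38.3% and 36.6%, median log2FC 0.96), and of 21 matrix proteases and inhibitors 6 higher and 12 lower (median -1.02). Fibronectin (Fn1) had 6986 and 12596 CPM at day 3, with replicate 2 the higher, and 488 and 529 CPM at day 10 (log2FC -4.27, SE 0.50, adjusted p = 2.24e-04). Fbln2 fell from 817 and 710.3 to 16.6 and 16.1 CPM (log2FC -5.55, SE 0.10), while its relative Fbln5, needed for elastic fibres, rose from 0.254 and 0.658 to 273 and 317 CPM (log2FC 9.32, SE 0.22). Col15a1, a basement membrane collagen, rose from 0.952 and 0.658 to 144 and 114 CPM (log2FC 7.31, SE 0.24), and Col8a1 fell from 125 and 120.3 to 8.51 and 8.88 CPM (log2FC -3.81, SE 0.12). The protease inhibitor genes Timp1 (89.1 and 79.0 to 4.03 and 3.37 CPM) and Timp3 (1269.6 and 1771 to 97.4 and 116 CPM) fell, whereas the metalloprotease gene Adam12 rose from 4.89 and 5.13 to 343 and 314 CPM (log2FC 6.04, SE 0.10). Of 22 TGF-beta target genes 4 were called higher and 13 lower (median -0.55).

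Mesenchymal and epithelial identity genes showed no single direction. Cdh1, the E-cadherin gene, was at 0.508 and 0.855 CPM at day 3 and 0.269 and 0.536 CPM at day 10, low in all 4 libraries, and its groups overlapped (adjusted p = 0.381). Of 17 tested mesenchymal markers 3 were called higher and 10 lower (backgrounds 38.3% and 36.6%, median log2FC -0.53). N-cadherin (Cdh2) fell from 191 and 187 to 84.6 and 93.1 CPM (log2FC -1.09, SE 0.07), and the hyaluronan receptor gene Cd44 from 197 and 180.1 to 18 and 18.7 CPM (log2FC -3.36, SE 0.09). Among transition factors Zeb1 fell (log2FC -0.53, SE 0.08), as did Snai1 (log2FC -0.62, SE 0.16), and Twist1 rose (log2FC 0.87, SE 0.12). Twist2 was called lower (log2FC -0.50, adjusted p = 0.0145), but missed the threshold without day 3 replicate 1 (adjusted p = 0.0502) or day 10 replicate 2 (adjusted p = 0.11). Zeb2 had 203 and 208 CPM against 203 and 207 CPM (log2FC -0.01, 95% interval -0.15 to 0.14, adjusted p = 0.951) and Snai2 missed the threshold (0.39, adjusted p = 0.081) but passed it without day 3 replicate 2 (0.61, adjusted p = 0.0279). Of 10 tested epithelial markers 3 were called higher and 4 lower, or 2 lower without day 10 replicate 1. Keratin genes moved apart, with Krt14 from 28.8 and 15.5 to 679.8 and 647 CPM (log2FC 4.90, SE 0.31), Krt8 from 63.5 and 45 to 233 and 210.1 CPM (log2FC 2.03, SE 0.15) and Krt7 from 230.3 and 151 to 3.94 and 5.67 CPM (log2FC -5.29, SE 0.28). The epithelial adhesion gene Epcam rose from 0.254 and 0.263 to 5.28 and 6.20 CPM (log2FC 4.44, SE 0.39).

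BMP2 is also a bone-forming factor, and the osteoblast and chondrocyte list had 3 called higher and 4 lower of 8 tested, of 17 listed. Osteopontin (Spp1) had 9137 and 8708 CPM with BMP2 alone and 1405 and 1764 CPM with rosiglitazone alone (log2FC -2.49, SE 0.15, adjusted p = 9.63e-09). Runx2, the master factor of osteoblasts, fell from 38.4 and 46.9 to 11.6 and 11.6 CPM (log2FC -1.88, SE 0.23), which is its mean at 0 h, and the cartilage factor gene Sox9 fell from 33.2 and 40.8 to 17.8 and 20.1 CPM (log2FC -0.96, SE 0.19). Alpl, the alkaline phosphatase of mineralising cells, had no count at 0 h and rose from 18.7 and 11.5 CPM at day 3 to 34.8 and 30.2 CPM at day 10 (log2FC 1.10, SE 0.19, adjusted p = 1.57e-04). Of 7 tested preadipocyte and stromal markers 1 was called higher, 4 lower and 2 not at all (backgrounds 38.3% higher and 36.6% lower). Among the 4 were the PDGF receptor gene Pdgfrb, from 551 and 505 to 131 and 146 CPM (log2FC -1.93, SE 0.14), and the stem cell antigen gene Ly6a, from 195 and 174 to 38.8 and 38.2 CPM (log2FC -2.26, SE 0.09). The 1 that rose was F3 (log2FC 2.59, adjusted p = 7.14e-10).

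Amino acid supply and stress genes were lower with rosiglitazone alone, with 15 of 18 called lower and 3 higher (median log2FC -1.30). Of the 18, 14 were called lower in the first step (background 36.1%, median -0.75) and 15 in the second (background 13.2%, median -0.82). Ddit3, the stress factor CHOP that also blocks C/EBP factors, had 255 and 344 CPM at day 3 and 61.5 and 51.4 CPM at day 10 (log2FC -2.41, SE 0.13), against a mean of 9.63 CPM at 0 h. The amino acid transporter gene Slc7a5 fell from 494 and 517 to 49.1 and 37.4 CPM (log2FC -3.55, SE 0.11), and Phgdh, the first enzyme of serine synthesis, from 57.1 and 58.4 to 4.03 and 2.30 CPM (log2FC -4.21, SE 0.17). Psat1, the next enzyme of that pathway, rose from 395 and 359.8 to 1082 and 1035 CPM (log2FC 1.49, SE 0.08). Of 34 cytosolic ribosomal protein genes 31 were called lower and 0 higher (backgrounds 36.6% and 38.3%, median log2FC -1.28). Rps20 fell from 387 and 369 to 98.7 and 114 CPM (log2FC -1.83, SE 0.08). These genes have many pseudogene copies in the genome, and reads shared with them are a limit on their counts.

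The remaining lists were mixed, beside backgrounds of 38.3% called higher and 36.6% called lower. Of 22 lysosome genes 8 were called higher and 11 lower (3 and 14 with library totals), and the acid lipase gene Lipa rose from 169 and 125 to 1184 and 1016 CPM (log2FC 2.90, SE 0.13). Of 12 tested glucocorticoid response genes 8 were called higher and 4 lower. Hsd11b1, which makes active glucocorticoid inside cells, rose from 0.825 and 0.789 to 2150.5 and 2202 CPM (log2FC 11.38, SE 0.15), and the receptor gene Nr3c1 from 245 and 239 to 723 and 745 CPM (log2FC 1.6, SE 0.07). The receptor's target genes went both ways. Sgk1 (log2FC -1.56, SE 0.10) and Fkbp5 (-1.99, SE 0.18) were among the 4 that fell, and Tsc22d3 (1.05, adjusted p = 5.32e-09) was among the 8 that rose. Of 17 tested circadian clock genes 12 were called higher and 2 lower, or 4 lower with library totals (median log2FC 0.75), with Dbp from 6.35 and 7.23 to 33.1 and 27.9 CPM (log2FC 2.16, SE 0.16) and Nr1d2 down (-1.15, SE 0.11). Of 17 tested Wnt pathway genes 7 were called higher and 8 lower. Their log2FCs ran from -4.29 to 4.80, and 4 members had 0 to 3 counts in a group. The lowest in the list was that of the Wnt antagonist gene Sfrp2, from 83.4 and 73.8 to 4.03 and 3.98 CPM (log2FC -4.29, SE 0.17). The ligand genes Wnt10a and Wnt7b, which fell further, are not in this list. Of 11 tested Notch genes 2 were called higher and 5 lower, with the ligand gene Jag1 from 19.8 and 25.6 to 65.2 and 63.4 CPM (log2FC 1.5, SE 0.11).

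Among called genes with at least 10 CPM in the higher group and no overlap between the groups, the largest changes included genes outside the fat cell lists. Tppp, a tubulin polymerisation protein, had no count at day 3 and 472 and 496 CPM at day 10, at least 5000-fold higher. The keratin gene Krt79 had no count and then 492 and 467 CPM, at least 4940-fold higher, and Mfng, a glycosyltransferase that modifies Notch, no count and then 165 and 150.2 CPM, at least 1620-fold higher. The adenylyl cyclase gene Adcy5, which makes cyclic AMP, had 139 and 115 CPM at day 10 and no count at day 3. The largest fall by that rule was that of Prkg2, a cyclic GMP-dependent kinase, from 233 and 302 to 0.716 and 0.612 CPM (log2FC -8.64, SE 0.23, adjusted p = 5.44e-13). Cd93, a C-type lectin receptor, fell from 60.1 and 41.8 to 0.269 and 0.153 CPM (log2FC -7.89, SE 0.31), the orphan receptor gene Gpr176 from 43.0 and 42.0 to 0.179 and 0.383 CPM (log2FC -7.16, SE 0.29), and Wnt7b from 66.9 and 85.5 to 1.16 and 0.766 CPM (log2FC -6.31, SE 0.23). Hmga2, a chromatin protein of embryonic and tumour cells, fell from 57.5 and 58.7 to 0.0896 and 1.15 CPM (log2FC -6.44, SE 0.36). Its day 10 replicates differed by more than 10-fold, yet both were far below day 3. Inmt, a methyltransferase gene, and Gpnmb, a glycoprotein gene, were higher with BMP2 alone than with rosiglitazone alone: Gpnmb had a mean of 0.332 CPM at 0 h, 19.1 and 18.1 CPM at day 3 and 0.269 and 0.230 CPM at day 10, and Inmt had 20.1 and 26.1 CPM at day 3 and 2 counts at day 10 (ratio 279, interval 77.1 to 2310).

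Some genes had moved far from the 0 h level by day 3 and were close to the same level at day 10. The 6 with the tightest agreement, among genes that differed at least 4-fold between day 3 and 0 h, were Clic1, Notch1, Pik3r1, Hbp1, Pdcd4 and Pnrc1. Notch1 had a mean of 11.6 CPM at 0 h, 51.9 and 55.5 CPM at day 3 and 52.6 and 50.8 CPM at day 10, with overlapping groups (log2FC -0.06, 95% interval -0.27 to 0.16, adjusted p = 0.618). Hbp1, a repressor of cell cycle genes, had a mean of 52.5 CPM at 0 h, then 302 and 266 CPM, then 245 and 277 CPM (interval -0.30 to 0.06, adjusted p = 0.21). Pdcd4, which restrains translation, had a mean of 13.8 CPM at 0 h, then 77.8 and 78.1 CPM, then 72.1 and 66.2 CPM, a difference that was called (log2FC -0.17, adjusted p = 0.046), though not without either day 3 library or day 10 replicate 2 (adjusted p = 0.0879, 0.0984 and 0.298). The chloride channel family gene Clic1 was lower than at 0 h in both states (mean of 395 CPM at 0 h, then 92.4 and 86.2 CPM, then 87.7 and 84.4 CPM; interval -0.20 to 0.09). Periostin (Postn), a matrix protein of activated stroma, was high in both as well, at 1389.6 and 995 CPM and at 868 and 1228 CPM, but its replicates spread so far that the 95% interval ran from -1.32 to 0.95 (adjusted p = 0.737). Being chosen for their closeness, the 6 genes are given as a description.

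Markers of leukocytes, endothelium and skeletal muscle were low. The 7 leukocyte markers with a count anywhere in the series summed to 9.778 and 8.483 CPM at day 3 and 10.57 and 9.111 CPM at day 10, with Ptprc and Cd79a at 0 in both groups, and of 3 tested 0 were called higher and 1 lower. The 7 endothelial markers summed to 18.98 and 18.94 CPM and to 23.2 and 25.65 CPM, with Cdh5 at 0 in both, and of 5 tested 1 was called higher and 2 lower. Pecam1 was the 1 that rose, from 2 counts to 3.40 and 3.98 CPM (ratio 57.5, interval 15.5 to 482). The 7 skeletal muscle markers summed to 2.032 and 1.578 CPM and to 2.866 and 3.062 CPM, and of 3 tested 2 were called higher and 0 lower. The 10 mammary luminal and milk genes, which are markers of the tissue of this breast cancer line, were not as low. They summed to 181 and 146.1 CPM and to 368.4 and 340.3 CPM, and of 5 tested 3 were called higher and 1 lower. Krt8 and Gata3, given above, were among the 3 that rose. The oestrogen receptor gene Esr1 was the 1 that fell, from 14.0 and 12.8 to 2.78 and 4.36 CPM (log2FC -1.89, SE 0.22), and the luminal factor gene Foxa1 was at 0 in all 4 libraries. Calls in these short lists rest on single libraries: without either day 3 library no leukocyte and no endothelial marker was called lower, and without day 3 replicate 1 or day 10 replicate 2 only 1 muscle marker was called higher. The white adipocyte sum, by contrast, went from 501.6 and 448.8 CPM to 44670 and 42599 CPM.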

How the data were processed

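RNA of 12 libraries, 2 at each of 6 times, was sequenced from 200 ng per sample; the labels' protocols name both a stranded total RNA kit and poly-A RNA, and whether reads were counted by strand is not stated. The deposited table holds raw read counts per gene by Entrez ID. STAR and the mm10 build are named per the submitters' processing notes; no version, counting tool or annotation is stated in what was used here. Symbols came from RefSeq GRCm38.p6 for 17045 of 17090 IDs and from GENCODE for 4, and 41 stayed unmatched.

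Counts were fitted with edgeR 4.0.16 (R 4.3.3, limma 3.58.1): TMM factors, filterByExpr (minimum count 10, minimum total 15), which removed 4350 genes, and a robust quasi-likelihood F test in 1 model over all 12 libraries with a mean per time point, 6 residual degrees of freedom and Benjamini-Hochberg adjustment over the 12740 genes tested. The 4 compared libraries held 13175402 to 15486062 counts. The SE is the absolute log2FC divided by the square root of F, and intervals are 95% intervals on the same degrees of freedom. Fold changes use a prior count of 0.125. A gene with no count in a group is given as at least N-fold, with 3 counts over its libraries as the floor, and one with 1 to 3 counts as a ratio with an exact 95% interval; both cover counting error only. Replicate numbers did not pair the libraries: of 15 pairs of time points 1 had same-numbered deviations correlated above 0.1 (range -0.091 to 0.193). On data simulated for day 10 against day 3 over 12423 genes, the fit recovered 73.1% of 1.5-fold, 95.5% of 2-fold and 100% of 4-fold changes, and 14 of its 193 calls were of unchanged genes. Only 67, 67 and 66 genes were changed at those folds, none of them of low count, and all other genes had the same mean at all times. The real groups differ in most genes and in composition, so these rates do not carry over to them.

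Named genes are 62 key genes, the 12 largest called rises and falls with at least 10 CPM in the higher group and no overlap, the 3 called members of each of 46 fixed gene lists with the largest change in each direction, and the 6 genes most alike in both groups. Ifit1, Ifit3, Isg15, Gbp3, Irf7, Ddx58, Id4, Snai1, Twist2, Akt2, Bcat2 and Tsc22d3, list members named for a count of 0 (such as Ptprc and Foxa1) and those named for a motif (B2m, Bst2, Gbp2 and Stat2) were added after their values were seen. Some genes that this rule names are not reported here. The comparison, the key genes and the lists were chosen with earlier results of these data known. Alternatives were other scalings, filters, DESeq2 1.42.0, a fit of only the 4 libraries, the replicate number as a block, a test against a 2-fold change, another prior count and leaving out each library. Promoters came from RefSeq GRCm38.p6, in which the 250 bases before each start were searched.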

Additional observations from a re-analysis of the deposited data

How the results depend on the processing

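Of 180 named genes followed through the alternatives, 138 kept their direction and their side of the threshold for day 10 against day 3 in every alternative run, and 42 did not in at least 1. The sign of a call turned with library totals only for Cebpb (log2FC -0.14) and Smad6 (log2FC -0.13). A test against a 2-fold change called 3988 genes, 2371 higher and 1617 lower. Library totals gave 3692 genes at least 2-fold lower, and 3183 genes lower for day 10 against day 7. Leaving out 1 library at a time gave 8803 to 9707 calls for day 10 against day 3 (4565 to 4969 higher, 4238 to 4760 lower) and 2143 to 3998 for day 10 against day 7 (1202 to 2105 higher, 941 to 1894 lower). The cause of these shifts was not tested. With the replicate block 9588 genes were called for day 10 against day 3, 9212 for day 7 against day 3 and 3719 for day 10 against day 7, and the numbers did not pair the libraries. Median-of-ratios and upper-quartile scaling, both other filters, DESeq2 and the 4-library fit kept all 17 counts of calls within 1.5 times, as the prior count of 2 did for the 5 counts it was run on. Of 92 list counts, 39 moved by more than that with the test against a 2-fold change, 14 with library totals, 5 with upper-quartile factors, 6 with a mean of at least 1 CPM, 4 with no filter, 4 in the 4-library fit and 3 with DESeq2, and 4 to 5 without a day 3 or day 10 library. Without 1 library of the 0 h, day 5 or day 7 groups an added PPAR target passed the filter and was called lower. At this depth, 463 tested genes had 0 to 3 counts at day 3 and 248 at day 10, and their folds are bounds or wide ratios.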
